A study of Homo sapiens with 8 samples.

Results

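Collagens are described here across human cells made from H1, an established human embryonic stem cell line, in 4 groups of 2 RNA-seq libraries. The members are the gene names of the deposited count table that consist of COL, a number, the letter A and a number, and that reach at least 10 counts in at least 2 of the 8 libraries. Of 61209 gene names, 44 match this pattern and 43 meet the count rule. COL8A1 lies just inside, with 13 and 0 counts in FGF8+10 Pdgfra+, 8 and 6 counts in FGF8+10 Pdgfralow, 4 and 2 counts in Mock Pdgfra+ and 5 and 22 counts in Mock Pdgfralow cells. COL17A1, a transmembrane collagen of epithelia, lies just outside, with 10 counts in 1 library and 0 to 2 counts in the other 7. The 43 members fall into 11 fibrillar, 9 network, 10 FACIT (fibril-associated), 5 beaded and 3 transmembrane collagen genes, and 5 genes outside these classes (COL7A1, COL15A1, COL18A1, COL26A1 and COL28A1).

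All libraries come from H1 cells that carry the Msx1-P2A-tdTomato reporter allele. On day 0 they received activin A (50 ng/mL), the GSK3 inhibitor CHIR99021 (6 µM), BMP4 (40 ng/mL) and FGF2 (10 ng/mL), followed by BMP4 at 60 ng/mL and CHIR99021 at 1 µM for the days after it, in a step the labels abbreviate LPM. On day 4 the cells were dissociated and spun into pellets of 25000 cells, and on day 8 they were sorted. The FGF8+10 groups received FGF8 and FGF10 at 500 ng/mL each from day 4, in a step abbreviated LM. The Mock groups differ in treatment by their labels, and what the Mock medium held is not stated. Within each treatment, cells with the Msx1 reporter were sorted by the surface receptor PDGFRA into Msx1+Pdgfra+ and Msx1+Pdgfralow cells, called Pdgfra+ and Pdgfralow below. The 4 groups are thus FGF8+10 Pdgfra+, FGF8+10 Pdgfralow, Mock Pdgfra+ and Mock Pdgfralow. The sort followed the treatment, so a gate may hold different cells in FGF8+10 and Mock pellets. The libraries of a group are labelled as biological replicates of 1 line. The labels do not say whether they were separate differentiations, so p-values measure the spread between these libraries only.

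Collagens are extracellular proteins whose chains wind into a triple helix. Fibrillar collagens form the ropes of connective tissue, FACIT collagens sit on those ropes, network collagens such as type IV form the sheets of basement membranes, and the beaded type VI links fibrils to cells. Embryonic mesenchyme such as that of the limb bud, where Msx1 and Pdgfra are expressed, lays down a loose matrix of types I, III, V and VI, and its cartilage holds fibrils of types II, IX and XI.

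Several type IV genes lie head to head, and RefSeq (GRCh38.p14) gives windows of 300 bases around their starts, from 250 bases before to 50 after. Of the 43 members, 31 had such a window, and the 43 windows include more than 1 start for some genes. The members with no window are COL1A1, COL1A2, COL2A1, COL3A1, COL5A2, COL6A1, COL6A5, COL8A1, COL9A3, COL14A1, COL20A1 and COL22A1. The start of COL4A1 lies 127 bases from that of COL4A2, and the start of COL4A5 lies 380 bases from the nearer start of COL4A6. The windows of these starts are shown because the partners of each pair are transcribed away from a shared stretch and can be compared in their response. Another COL4A6 start, at base 108438422, has a window with no CCAAT box, which is not shown. The counts do not tell the COL4A6 starts apart. The windows of COL15A1 and COL26A1 are added as those of a member that fell and a member that rose strongly with FGF8+10. Capitals mark CCAAT boxes (CCAAT or its reverse complement ATTGG) and GC boxes (GGGCGG or CCGCCC), and all sequences run 5′ to 3′ on the gene's strand.
COL4A1 (chr13:110307108-110307407, minus strand): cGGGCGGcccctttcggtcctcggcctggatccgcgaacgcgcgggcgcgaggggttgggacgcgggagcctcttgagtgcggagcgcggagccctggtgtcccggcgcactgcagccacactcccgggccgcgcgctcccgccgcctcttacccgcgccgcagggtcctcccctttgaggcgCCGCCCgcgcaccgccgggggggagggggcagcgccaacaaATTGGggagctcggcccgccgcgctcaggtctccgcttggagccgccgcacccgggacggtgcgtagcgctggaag
COL4A2 (chr13:110307034-110307333, plus strand): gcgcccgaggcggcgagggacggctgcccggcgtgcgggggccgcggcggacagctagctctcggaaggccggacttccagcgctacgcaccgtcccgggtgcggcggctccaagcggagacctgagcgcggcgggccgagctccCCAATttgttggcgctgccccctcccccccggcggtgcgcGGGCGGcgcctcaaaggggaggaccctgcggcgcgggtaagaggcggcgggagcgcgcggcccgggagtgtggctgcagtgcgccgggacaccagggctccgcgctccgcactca
COL4A5 (chrX:108439588-108439887, plus strand): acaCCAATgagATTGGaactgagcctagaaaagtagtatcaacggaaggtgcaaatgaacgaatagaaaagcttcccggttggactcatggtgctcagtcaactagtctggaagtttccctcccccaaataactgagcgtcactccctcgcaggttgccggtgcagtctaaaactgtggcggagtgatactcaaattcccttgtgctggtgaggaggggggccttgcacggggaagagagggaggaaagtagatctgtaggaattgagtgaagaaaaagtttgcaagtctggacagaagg
COL4A6 (chrX:108439409-108439708, minus strand): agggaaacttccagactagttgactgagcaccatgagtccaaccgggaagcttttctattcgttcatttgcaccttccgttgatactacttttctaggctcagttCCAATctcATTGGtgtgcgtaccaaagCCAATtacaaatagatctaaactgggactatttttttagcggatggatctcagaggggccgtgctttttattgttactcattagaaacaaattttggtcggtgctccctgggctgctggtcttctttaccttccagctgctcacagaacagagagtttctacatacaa
COL15A1 (chr9:98943657-98943956, plus strand): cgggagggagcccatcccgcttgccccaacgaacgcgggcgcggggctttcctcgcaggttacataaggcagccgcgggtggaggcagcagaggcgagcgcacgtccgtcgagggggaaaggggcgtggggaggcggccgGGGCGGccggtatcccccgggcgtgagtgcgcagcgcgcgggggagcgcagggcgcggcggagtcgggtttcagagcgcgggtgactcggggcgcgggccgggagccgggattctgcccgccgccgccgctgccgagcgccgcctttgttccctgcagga
COL26A1 (chr7:101362625-101362924, plus strand): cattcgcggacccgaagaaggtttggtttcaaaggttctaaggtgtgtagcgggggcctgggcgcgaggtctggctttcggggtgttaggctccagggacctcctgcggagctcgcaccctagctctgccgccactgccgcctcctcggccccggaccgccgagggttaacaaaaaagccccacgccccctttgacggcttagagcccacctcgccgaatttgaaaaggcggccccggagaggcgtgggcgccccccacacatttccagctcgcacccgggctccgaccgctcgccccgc
The windows of COL4A1 and COL4A2 overlap and hold the same CCAAT box, read from opposite strands. The windows of COL4A5 and COL4A6 overlap as well and share a pair of CCAAT boxes. CCAAT was found on either strand in 13 of the 43 member windows (30.2%) and in 34.6% of 35116 RefSeq windows of the same length. GGGCGG was found in 24 member windows (55.8%) and in 45.0% of all windows. TATAAA was found in 7 member windows (16.3%) and in 11.5% of all. The AP-1 motif TGAGTCA and the ETS motif CCGGAAGT were found in 0 member windows, and in 4.95% and 4.14% of all windows. A match is a run of letters and not a measured site.

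Depth ranged from 47698561 to 64390444 counts per library, and all 43 members were among the 22554 genes tested. On log2 CPM (counts scaled to a common library size with TMM factors), the 2 libraries of a group had a Pearson's r across genes of 0.9976 to 0.9984, where genes are not independent replicates. PDGFRA, the receptor of the gate, averaged 714 ± 2.9 CPM in FGF8+10 Pdgfra+ and 286 ± 9.3 CPM in FGF8+10 Pdgfralow cells, and 454 ± 1.9 CPM in Mock Pdgfra+ and 192 ± 3.6 CPM in Mock Pdgfralow cells (SD, n = 2 each), so the Pdgfralow gate still held PDGFRA transcript. Markers of other cell types also moved with treatment and gate. The summed level of 10 endothelial markers was 2203 to 2218 CPM in FGF8+10 Pdgfra+, 2702 to 2705 in FGF8+10 Pdgfralow, 1387 to 1397 in Mock Pdgfra+ and 1413 to 1421 in Mock Pdgfralow cells, most of it KDR and TEK. PECAM1, which defines endothelium, stood at 17.5 to 19.4 CPM in FGF8+10 Pdgfralow cells and at 0.645 to 3.11 CPM in the other groups. All 10 endothelial markers were higher with FGF8+10 in Pdgfralow cells, beside 27.9% of all tested genes. The 9 chondrocyte markers summed to 349 to 365 CPM in FGF8+10 Pdgfra+, 845 to 866 in FGF8+10 Pdgfralow, 1536 to 1561 in Mock Pdgfra+ and 1608 to 1615 in Mock Pdgfralow cells, most of it HAPLN1, and CNMD was at or near 0. The 10 cardiac markers summed to 12.9 to 24.7 CPM with FGF8+10 and 145 to 156 CPM with Mock, with TNNI3 at 0 throughout. The part of these cells in the collagen values was not tested.

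**Figure D1:**
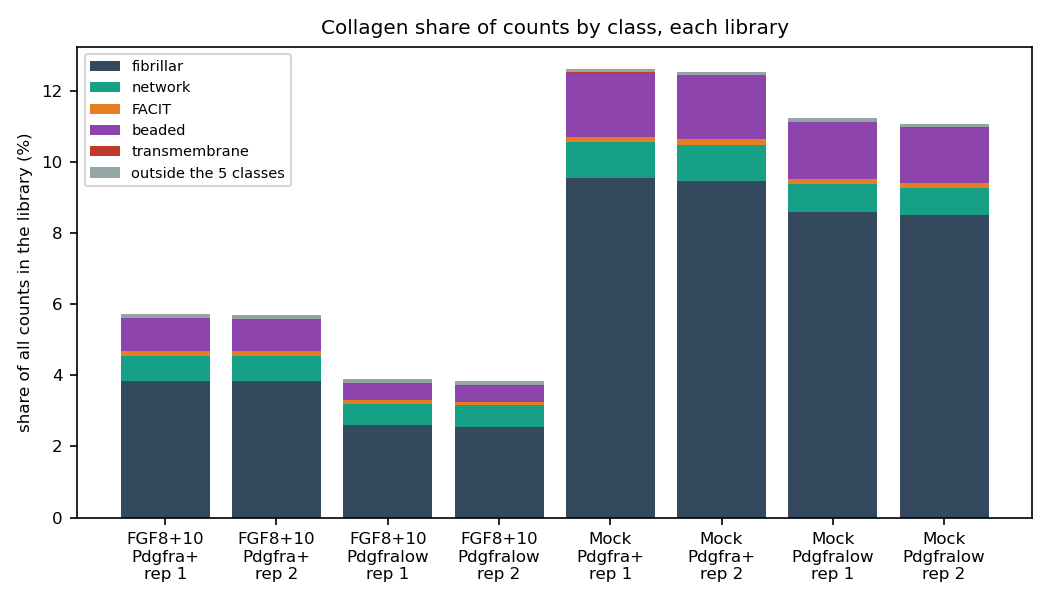
Share of all counts in each library taken by the 43 collagen genes, in percent, stacked by class. The bars start at 0. The 4 FGF8+10 libraries reach 3.86% to 5.71% on average by group and the 4 Mock libraries 11.2% to 12.6%, and the fibrillar class makes up most of every bar.

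The collagen genes took a smaller share of the transcriptome with FGF8+10 than with Mock. Together they held 5.71% ± 0.018 of all counts in FGF8+10 Pdgfra+ cells, against 12.6% ± 0.055 in Mock Pdgfra+ cells, and 3.86% ± 0.039 in FGF8+10 Pdgfralow cells, against 11.2% ± 0.11 in Mock Pdgfralow cells (mean ± SD, n = 2). Exact binomial 95% intervals on these shares, which cover counting error only, were at most 0.0267 percentage points wide in any library. The treatments do not overlap in this share, and the Pdgfra+ share was above the Pdgfralow share under both. COL3A1, which encodes the homotrimeric type III collagen of soft connective tissue, alone held 2.51% ± 0.011 in FGF8+10 Pdgfra+, 1.61% ± 0.013 in FGF8+10 Pdgfralow, 5.68% ± 0.014 in Mock Pdgfra+ and 5.11% ± 0.00018 in Mock Pdgfralow cells. It was 41.7% to 45.9% of the collagen counts in every group.

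The mix of classes shifted too. Fibrillar genes made up 67.5% and 66.7% of the collagen counts in FGF8+10 Pdgfra+ and Pdgfralow cells, and 75.5% and 76.6% in Mock Pdgfra+ and Pdgfralow cells. Network genes made up 12% and 15.8% in FGF8+10 Pdgfra+ and Pdgfralow cells, against 8.11% and 6.92% in Mock Pdgfra+ and Pdgfralow cells. Beaded genes stayed between 12.3% and 15.7%. FACIT genes held 2.66% and 2.54% in FGF8+10 Pdgfra+ and Pdgfralow cells, against 1.30% and 1.21% in Mock Pdgfra+ and Pdgfralow cells. Transmembrane genes held at most 0.112% in any group. With 2 libraries a group these shares were not tested. The libraries are bulk samples, in which fewer cells of a type and less RNA per cell cannot be told apart.

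**Figure D2:**
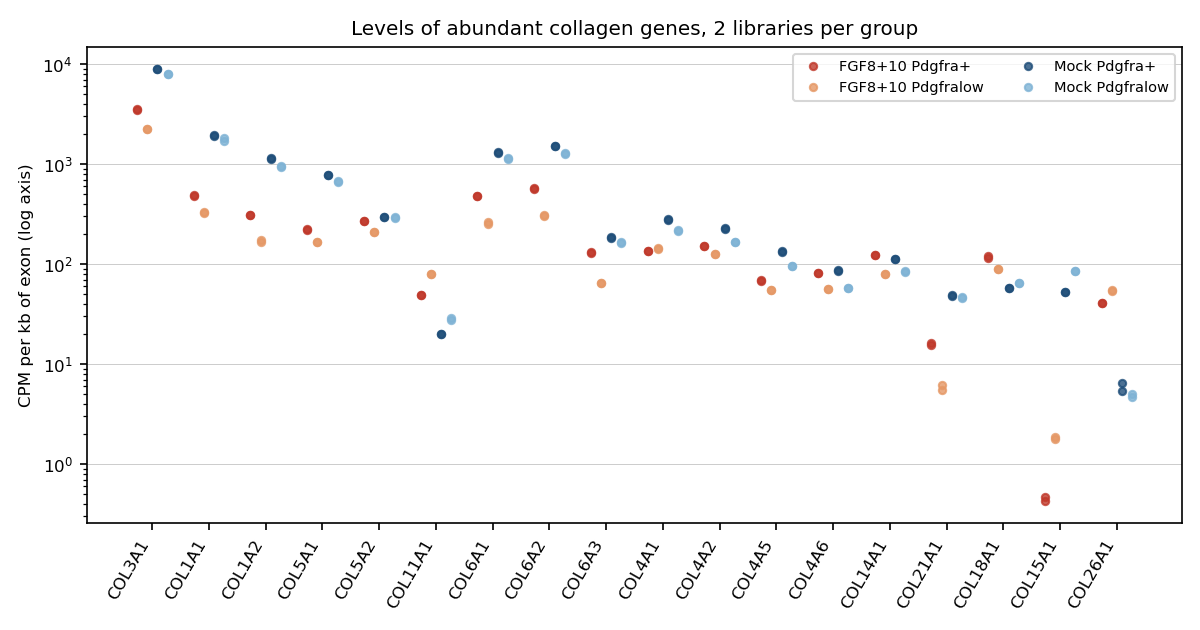
Level of 18 abundant collagen genes in CPM per kb of exon, on a log axis. Each point is 1 library, and colours mark the 4 groups. COL3A1 is the highest gene in all 8 libraries, and COL15A1 and COL26A1 show the widest gaps between FGF8+10 and Mock among the genes drawn.

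Per kb of exon, the length given in the table, COL3A1 was the most abundant member in all 8 libraries, at 3515 in FGF8+10 Pdgfra+, 2240 in FGF8+10 Pdgfralow, 8967 in Mock Pdgfra+ and 7964 CPM per kb in Mock Pdgfralow cells. The other leading levels were those of the type I chain COL1A1 (484, 327, 1933 and 1758 CPM per kb in the same groups) and the type VI chain COL6A2 (572, 306, 1502 and 1275). At the other end, 5 members (COL4A3, COL6A5, COL8A1, COL20A1 and COL28A1) stayed under 1 CPM in every library. At least 10 counts in all 8 libraries were reached by 35 members. COL10A1, the marker of hypertrophic cartilage, was near this floor with 0.118 and 0.132 CPM in FGF8+10 Pdgfra+, 0.132 and 0.222 CPM in FGF8+10 Pdgfralow, 1.1 and 0.83 CPM in Mock Pdgfra+ and 0.394 and 0.298 CPM in Mock Pdgfralow cells. Its log2 fold change, FGF8+10 over Mock, was -2.92 ± 0.59 (SE) in Pdgfra+ cells, past the test below, and -0.95 ± 0.6 in Pdgfralow cells, not past it.

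The first comparison sets FGF8+10 against Mock within each sorted population. In Pdgfra+ cells 26 of the 43 collagen genes fell and 10 rose, beside 25.1% of all tested genes lower and 25.8% higher, 50.9% in all (edgeR quasi-likelihood test, Benjamini-Hochberg adjusted p under 0.05). At least 2-fold changes were passed by 21 of the fallen and 7 of the risen members, beside 9.83% and 7.29% of all genes. In Pdgfralow cells 27 fell and 9 rose, beside 27.7% lower and 27.9% higher of all genes, 55.7% in all, and 19 of the fallen and 5 of the risen moved at least 2-fold, beside 11.8% and 9.45%. The median log2 fold change of the members was -1.05 in Pdgfra+ and -0.81 in Pdgfralow cells, and that of all tested genes -0.011 and -0.015. Changes written as a value ± a standard error are log2 fold changes, FGF8+10 over Mock, from this fit. With libraries scaled by their totals alone, the median of all genes shifted to 0.161 in Pdgfra+ and 0.146 in Pdgfralow cells. The split of all calls then became 8164 higher and 3991 lower in Pdgfra+ cells, against 5811 and 5658 with TMM, and 8113 and 4672 in Pdgfralow cells, against 6300 and 6256 with TMM. The collagen split under that scaling was 12 higher and 24 lower in Pdgfra+ cells and 11 and 25 in Pdgfralow cells. Lower in both populations were 24 members and higher in both 8. Of all tested genes, at most 25.1% can be lower in both and 25.8% higher in both, the shares in Pdgfra+ cells. COL11A2, COL4A3, COL8A1 and COL9A2 passed in neither population.

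**Figure D3:**
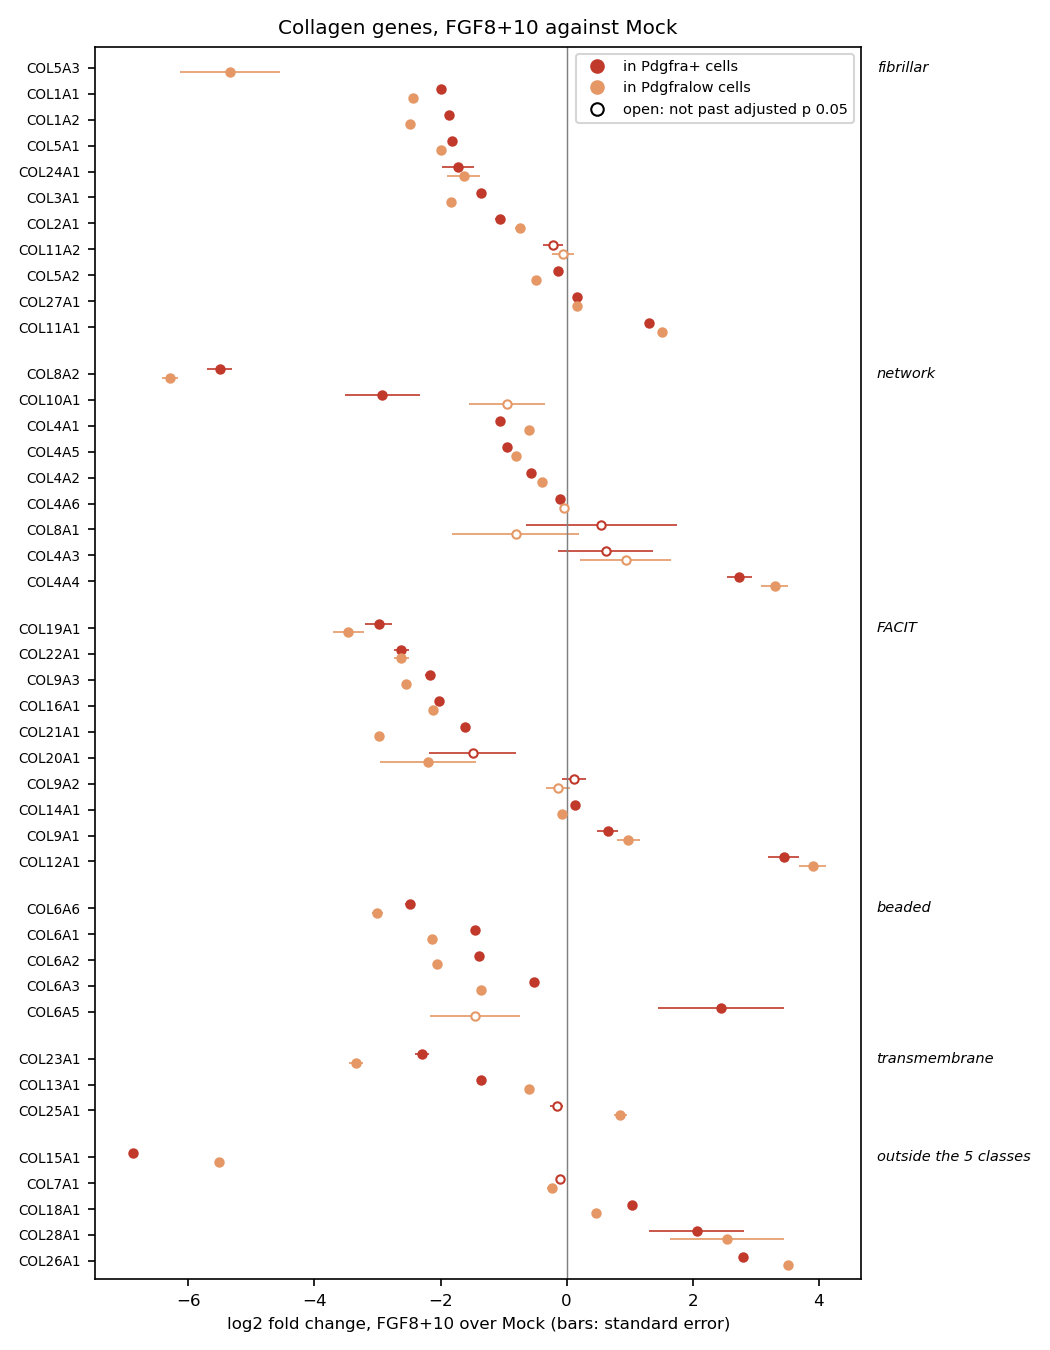
Log2 fold change of every collagen gene, FGF8+10 over Mock, in Pdgfra+ and Pdgfralow cells, sorted within class. Bars are standard errors, filled points passed an adjusted p of 0.05, and no point is drawn for COL5A3 in Pdgfra+ cells, where the FGF8+10 group had 0 counts. Most filled points lie left of 0, COL15A1 lies farthest left in Pdgfra+ cells at -6.88, and COL12A1 farthest right in both. The small negative values of COL5A2 and COL4A6 in Pdgfra+ cells and of COL14A1 and COL4A6 in Pdgfralow cells turn positive when libraries are scaled by their totals alone.

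Of the 11 fibrillar genes, 8 fell and 2 rose in each population, with a median of -1.35 in Pdgfra+ and -1.63 in Pdgfralow cells. Of all tested genes, 25.1% were lower and 25.8% higher in Pdgfra+ cells, and 27.7% and 27.9% in Pdgfralow cells. COL1A1 encodes the main chain of type I collagen, the bulk protein of bone, tendon and skin (chromosome 17, 50184101 to 50201632, GRCh38). It had 4393 and 4333 CPM in FGF8+10 Pdgfra+ cells, against 17677 and 17136 CPM in Mock Pdgfra+ cells, and 2995 and 2902 CPM in FGF8+10 Pdgfralow cells, against 16210 and 15463 CPM in Mock Pdgfralow cells. Every FGF8+10 library was below every Mock library, and the log2 fold changes were -2.0 ± 0.021 in Pdgfra+ and -2.43 ± 0.021 in Pdgfralow cells (adjusted p = 1.2e-23 and 4.59e-25). Within a population, treatments did not overlap in 73.6% of all tested genes in Pdgfra+ and 76% in Pdgfralow cells. A lack of overlap, here and in the genes below, is thus common in these data. COL1A2, the partner chain (chromosome 7, 94394895 to 94431227), had 3350 and 3367 CPM in FGF8+10 Pdgfra+ cells, against 12280 and 12108 CPM in Mock Pdgfra+ cells, and 1859 and 1819 CPM in FGF8+10 Pdgfralow cells, against 10207 and 10273 CPM in Mock Pdgfralow cells. It fell by nearly the same amount, at -1.86 ± 0.015 and -2.48 ± 0.015, again with no overlap between treatments. COL3A1 (chromosome 2, 188974373 to 189012746) had 23666 and 23848 CPM in FGF8+10 Pdgfra+ cells, against 60765 and 60429 CPM in Mock Pdgfra+ cells, and 15191 and 15086 CPM in FGF8+10 Pdgfralow cells, against 53755 and 53881 CPM in Mock Pdgfralow cells. The groups kept apart, at -1.35 ± 0.011 in Pdgfra+ and -1.83 ± 0.011 in Pdgfralow cells (adjusted p = 1.99e-52 and 1.35e-57).

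The type V chains, which seed and thin the fibrils of type I, did not move together. COL5A1 (chromosome 9, 134641803 to 134844843) had 2487 and 2428 CPM in FGF8+10 Pdgfra+ cells, against 8667 and 8640 CPM in Mock Pdgfra+ cells, and 1872 and 1879 CPM in FGF8+10 Pdgfralow cells, against 7573 and 7347 CPM in Mock Pdgfralow cells. It fell in both populations (-1.82 ± 0.016 and -1.99 ± 0.016). COL5A2 lies 19151 bases from COL3A1 on the opposite strand (chromosome 2, 189031898 to 189225312) and had 1963 and 1970 CPM in FGF8+10 Pdgfra+ cells, against 2151 and 2147 CPM in Mock Pdgfra+ cells, and 1537 and 1521 CPM in FGF8+10 Pdgfralow cells, against 2149 and 2133 CPM in Mock Pdgfralow cells. Its treatment groups do not overlap, but the change was small, -0.13 ± 0.017 in Pdgfra+ and -0.49 ± 0.017 in Pdgfralow cells, and with libraries scaled by their totals alone the Pdgfra+ value was 0.04. COL5A3, the minor type V chain, had 0 counts in both FGF8+10 Pdgfra+ libraries and 8 and 12 counts in the Mock Pdgfra+ libraries, at least 4.86-fold lower with a floor of 6 counts over the group. In Pdgfralow cells it had 3 and 0 counts in the FGF8+10 libraries, against 64 and 79 counts in the Mock libraries, a level 43.9-fold higher in Mock (exact 95% interval 8.84 to 279, with mates of a pair counted as 1). The fitted Pdgfralow value of -5.34 was -4.33 without FGF8+10 Pdgfralow replicate 2. Without FGF8+10 Pdgfralow replicate 1, which holds all 3 counts, the value was -9.11. The FGF8+10 Pdgfralow library left then has 0 counts, so -9.11 is no measured size.

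COL11A1 went the other way. This type XI chain, found inside the fibrils of cartilage and of embryonic mesenchyme (chromosome 1, 102876467 to 103108872), had 443 and 442 CPM in FGF8+10 Pdgfra+ cells, against 180 and 180 CPM in Mock Pdgfra+ cells, and 730 and 727 CPM in FGF8+10 Pdgfralow cells, against 250 and 260 CPM in Mock Pdgfralow cells. All FGF8+10 libraries were above all Mock libraries, by 1.30 ± 0.024 in Pdgfra+ and 1.51 ± 0.024 in Pdgfralow cells (adjusted p = 1.08e-38 and 5.91e-42). Its partner COL11A2 averaged 5.36 ± 0.75 CPM in FGF8+10 Pdgfra+ and 6.22 ± 0.93 CPM in Mock Pdgfra+ cells, with overlapping groups. COL2A1, the cartilage collagen that shares trimers with type XI chains, was low, at 15.6 ± 0.97 CPM in FGF8+10 Pdgfra+ and 32.3 ± 0.41 CPM in Mock Pdgfra+ cells, and fell in both populations (-1.05 ± 0.078 and -0.74 ± 0.081). COL27A1, a fibrillar gene of developing cartilage (chromosome 9, 114155537 to 114312511), had 130 and 126 CPM in FGF8+10 Pdgfra+ cells, against 118 and 111 CPM in Mock Pdgfra+ cells, and 117 and 117 CPM in FGF8+10 Pdgfralow cells, against 105 and 105 CPM in Mock Pdgfralow cells. It rose by 0.16 ± 0.035 in Pdgfra+ and 0.16 ± 0.035 in Pdgfralow cells, both small changes. COL24A1, a minor fibrillar gene, was low and fell in both (-1.72 ± 0.25 and -1.63 ± 0.26), at 1.12 ± 0.079 CPM in FGF8+10 Pdgfra+ and 3.7 ± 0.52 CPM in Mock Pdgfra+ cells.

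Of the 9 network genes, 6 fell and 1 rose in Pdgfra+ cells, and 4 fell and 1 rose in Pdgfralow cells. Of all tested genes, 50.9% were called in either direction in Pdgfra+ and 55.7% in Pdgfralow cells. The number of network genes called in Pdgfralow cells is near that share. COL4A1 and COL4A2 encode the chains of the type IV trimer present in nearly all basement membranes. COL4A1 (chromosome 13, 110148963 to 110307157) had 1991 and 1959 CPM in FGF8+10 Pdgfra+ cells, against 4080 and 4133 CPM in Mock Pdgfra+ cells, and 2117 and 2068 CPM in FGF8+10 Pdgfralow cells, against 3217 and 3102 CPM in Mock Pdgfralow cells. COL4A2 (chromosome 13, 110305812 to 110513209) had 2955 and 2939 CPM in FGF8+10 Pdgfra+ cells, against 4397 and 4354 CPM in Mock Pdgfra+ cells, and 2453 and 2440 CPM in FGF8+10 Pdgfralow cells, against 3247 and 3182 CPM in Mock Pdgfralow cells. Both fell without overlap between treatments, COL4A1 at -1.06 ± 0.018 in Pdgfra+ and -0.59 ± 0.017 in Pdgfralow cells and COL4A2 at -0.57 ± 0.016 and -0.39 ± 0.016. The sequences of this pair above hold the divergent starts. Endothelium also makes these type IV chains. Of the 10 endothelial markers, 5 were higher and 2 (TIE1 at -1.22 and CLDN5 at -2.06) lower with FGF8+10 in Pdgfra+ cells, where CDH5, ESAM and VWF did not pass, and all 10 were higher in Pdgfralow cells, with medians of 0.49 and 2.52. Beside these counts, 25.8% of all tested genes were higher and 25.1% lower in Pdgfra+ cells, and 27.9% were higher in Pdgfralow cells. The part of endothelial cells in the type IV values was not tested.

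COL4A5 and COL4A6 encode the chains of a type IV trimer of smooth muscle and epithelial membranes and lie head to head on the X chromosome. COL4A5 (start 108439838, end 108697545) had 826 and 803 CPM in FGF8+10 Pdgfra+ cells, against 1555 and 1595 CPM in Mock Pdgfra+ cells, and 651 and 655 CPM in FGF8+10 Pdgfralow cells, against 1128 and 1142 CPM in Mock Pdgfralow cells. It fell (-0.95 ± 0.02 and -0.80 ± 0.02). COL4A6 (start 108155607, end 108439497) had 757 and 748 CPM in FGF8+10 Pdgfra+ cells, against 798 and 817 CPM in Mock Pdgfra+ cells, and 520 and 522 CPM in FGF8+10 Pdgfralow cells, against 540 and 534 CPM in Mock Pdgfralow cells. Its change was -0.10 ± 0.021 in Pdgfra+ cells, past the test, and -0.04 ± 0.021 in Pdgfralow cells, not past it, and with libraries scaled by their totals alone the values were 0.07 and 0.12. The windows shown above for both genes hold CCAAT boxes, and the difference between the partners' changes was not tested. COL4A4, a chain of the kidney and lung trimer, was low and rose by 2.74 ± 0.2 in Pdgfra+ and 3.30 ± 0.21 in Pdgfralow cells, at 7.37 ± 0.18 CPM in FGF8+10 Pdgfra+ and 1.1 ± 0.09 CPM in Mock Pdgfra+ cells. Its head-to-head neighbour COL4A3, with starts 419 bases apart, stayed under 1 CPM and passed no test.

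COL8A2 encodes a chain of the hexagonal lattice known from the corneal Descemet membrane (chromosome 1, 36095239 to 36125222). It had 0.207 and 0.0883 CPM in FGF8+10 Pdgfra+ cells, against 6.88 and 6.72 CPM in Mock Pdgfra+ cells, and 0.773 and 1.11 CPM in FGF8+10 Pdgfralow cells, against 75.9 and 73.1 CPM in Mock Pdgfralow cells. It was near 0 with FGF8+10 in both populations, and reached 73.1 to 75.9 CPM in Mock Pdgfralow cells. The fall was -5.50 ± 0.2 in Pdgfra+ and -6.29 ± 0.12 in Pdgfralow cells (adjusted p = 5.08e-27 and 5.24e-39), and the Pdgfra+ value was -6.22 without FGF8+10 Pdgfra+ replicate 1. COL8A1, its usual partner, had at most 22 counts in a library.

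Of the 10 FACIT genes, 5 fell and 3 rose in Pdgfra+ cells and 7 fell and 2 rose in Pdgfralow cells. Of all tested genes, 25.1% were lower and 25.8% higher in Pdgfra+ cells, and 27.7% and 27.9% in Pdgfralow cells. The FACIT rises in Pdgfra+ cells are near that share. The class medians were -1.55 and -2.16. COL14A1, which binds fibrils through its glycoprotein partners and marks loose fibrous tissue, was by far the most abundant (chromosome 8, 120059780 to 120373573), with 1255 and 1251 CPM in FGF8+10 Pdgfra+ cells, against 1141 and 1139 CPM in Mock Pdgfra+ cells, and 814 and 817 CPM in FGF8+10 Pdgfralow cells, against 861 and 854 CPM in Mock Pdgfralow cells. It was slightly higher with FGF8+10 in Pdgfra+ cells (0.14 ± 0.019) and slightly lower in Pdgfralow cells (-0.07 ± 0.019), and the Pdgfralow value was 0.09 with libraries scaled by their totals alone. COL21A1, a FACIT gene of vessel walls (chromosome 6, 56056590 to 56394094), had 107 and 113 CPM in FGF8+10 Pdgfra+ cells, against 338 and 330 CPM in Mock Pdgfra+ cells, and 38.3 and 42.5 CPM in FGF8+10 Pdgfralow cells, against 314 and 324 CPM in Mock Pdgfralow cells. Its log2 fold changes were -1.61 ± 0.032 in Pdgfra+ and -2.98 ± 0.036 in Pdgfralow cells with all treatment groups apart (adjusted p = 1.34e-36 and 2.62e-45). COL16A1, a FACIT gene of skin and cartilage (chromosome 1, 31652263 to 31704319), had 51.3 and 47.7 CPM in FGF8+10 Pdgfra+ cells, against 201 and 200 CPM in Mock Pdgfra+ cells, and 31.3 and 29.3 CPM in FGF8+10 Pdgfralow cells, against 129 and 135 CPM in Mock Pdgfralow cells. It fell alike in each population (-2.02 ± 0.039 and -2.12 ± 0.042).

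COL9A3, a chain of type IX on cartilage fibrils (chromosome 20, 62816244 to 62841159), had 6.41 and 6.36 CPM in FGF8+10 Pdgfra+ cells, against 27.7 and 29.6 CPM in Mock Pdgfra+ cells, and 11.8 and 12.6 CPM in FGF8+10 Pdgfralow cells, against 70.7 and 71.9 CPM in Mock Pdgfralow cells. It fell (-2.17 ± 0.075 and -2.55 ± 0.067). Of its exon length, 3.2% overlaps exons of TCFL5. COL9A1 moved the other way (0.65 ± 0.17 and 0.98 ± 0.18), at 5.34 ± 0.27 CPM in FGF8+10 Pdgfra+ and 3.39 ± 0.047 CPM in Mock Pdgfra+ cells, and COL9A2, at 4.69 ± 0.46 CPM in FGF8+10 Pdgfra+ and 4.31 ± 1.6 CPM in Mock Pdgfra+ cells, passed in neither population, but passed in Pdgfra+ cells, at 0.56, without Mock Pdgfra+ replicate 2. Of the 9 chondrocyte markers, 8 were tested, and 5 were lower and 1 higher with FGF8+10 in each population. Beside them, 25.1% of all tested genes were lower and 25.8% higher in Pdgfra+ cells, and 27.7% and 27.9% in Pdgfralow cells. The chondrocyte markers had medians of -1.19 in Pdgfra+ and -1.25 in Pdgfralow cells. ACAN (aggrecan) was among the lower ones (-4.15 ± 0.11 in Pdgfra+ and -4.01 ± 0.11 in Pdgfralow cells), and the higher one was SOX9, by 1.01 ± 0.098 and 0.50 ± 0.089. The part of chondrocyte-like cells in the type IX values was not tested.

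COL12A1, the FACIT gene of tendon and dense tissue (chromosome 6, 75084326 to 75206267), had 5.64 and 5.17 CPM in FGF8+10 Pdgfra+ cells, against 0.717 and 0.291 CPM in Mock Pdgfra+ cells, and 11.4 and 9.77 CPM in FGF8+10 Pdgfralow cells, against 0.559 and 0.86 CPM in Mock Pdgfralow cells. Its log2 rise was the largest among the members, though it stood under 1 CPM in Mock. The rise was 3.44 ± 0.25 in Pdgfra+ and 3.90 ± 0.22 in Pdgfralow cells (adjusted p = 2.46e-16 and 1.97e-20), and the Pdgfra+ value was 4.21 without Mock Pdgfra+ replicate 1. COL19A1, a FACIT gene first known from muscle tumour cells (chromosome 6, 69866556 to 70212468), had 0.859 and 1.18 CPM in FGF8+10 Pdgfra+ cells, against 7.91 and 8.24 CPM in Mock Pdgfra+ cells, and 0.283 and 0.597 CPM in FGF8+10 Pdgfralow cells, against 5.42 and 4.47 CPM in Mock Pdgfralow cells. It fell (-2.98 ± 0.21 and -3.46 ± 0.25), with the Pdgfralow value at -4.12 without FGF8+10 Pdgfralow replicate 2. COL22A1, a FACIT gene of tissue junctions, fell (-2.62 ± 0.12 and -2.62 ± 0.12), at 3.14 ± 0.4 CPM in FGF8+10 Pdgfra+ and 19.3 ± 2.6 CPM in Mock Pdgfra+ cells. COL20A1 stayed under 1 CPM and fell past the test in Pdgfralow cells (-2.20 ± 0.76). In Pdgfra+ cells it did not pass (-1.49 ± 0.69), but it passed without either FGF8+10 Pdgfralow library (-1.47 and -1.47), without Mock Pdgfra+ replicate 2 (-1.94), with counts divided by 2 (-1.53) and with the 4 Pdgfra+ libraries fitted alone (-1.49). The Pdgfralow call was lost without FGF8+10 Pdgfralow replicate 2 (-1.30) or Mock Pdgfralow replicate 1 (-1.55), and the value was -4.62 without FGF8+10 Pdgfralow replicate 1. Whether the COL20A1 effect differed between populations is given by its difference of 0.71 ± 1, which did not pass.

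The 3 abundant type VI chains, which assemble into 1 trimer, all fell. COL6A1 (chromosome 21, 45981770 to 46005050) had 2663 and 2623 CPM in FGF8+10 Pdgfra+ cells, against 7231 and 7192 CPM in Mock Pdgfra+ cells, and 1448 and 1408 CPM in FGF8+10 Pdgfralow cells, against 6320 and 6286 CPM in Mock Pdgfralow cells. COL6A2, 93061 bases downstream on the same strand (chromosome 21, 46098112 to 46132848), had 3070 and 3027 CPM in FGF8+10 Pdgfra+ cells, against 8000 and 8025 CPM in Mock Pdgfra+ cells, and 1636 and 1626 CPM in FGF8+10 Pdgfralow cells, against 6904 and 6696 CPM in Mock Pdgfralow cells. Both moved alike, COL6A1 at -1.45 ± 0.016 in Pdgfra+ and -2.14 ± 0.016 in Pdgfralow cells and COL6A2 at -1.39 ± 0.016 and -2.06 ± 0.016. COL6A3, the longest of these chains (chromosome 2, 237324003 to 237414328), had 2815 and 2762 CPM in FGF8+10 Pdgfra+ cells, against 3991 and 3958 CPM in Mock Pdgfra+ cells, and 1395 and 1401 CPM in FGF8+10 Pdgfralow cells, against 3624 and 3539 CPM in Mock Pdgfralow cells. Its fall was smaller, -0.51 ± 0.016 and -1.36 ± 0.017 (adjusted p = 2.14e-29 and 4.96e-46). COL6A6, an alternative to COL6A3, fell (-2.48 ± 0.081 and -3.00 ± 0.088), at 7.15 ± 0.16 CPM in FGF8+10 Pdgfra+ and 40 ± 1.3 CPM in Mock Pdgfra+ cells. COL6A5, another alternative chain, had 0.193 and 0.177 CPM in FGF8+10 Pdgfra+ cells, against 0 and 0.0623 CPM in Mock Pdgfra+ cells, and 0.226 and 0.171 CPM in FGF8+10 Pdgfralow cells, against 0.657 and 0.43 CPM in Mock Pdgfralow cells. The fit called it higher with FGF8+10 in Pdgfra+ cells (adjusted p = 0.0384), but on 25 counts with FGF8+10 and 3 with Mock over 2 libraries each, a ratio of 5.71 with an exact 95% interval of 0.915 to 37.8. The call was lost without either FGF8+10 Pdgfra+ library, without Mock Pdgfra+ replicate 1 or without Mock Pdgfralow replicate 1, at log2 values of 2.40, 2.52, 1.54 and 2.45 in that order. Without Mock Pdgfra+ replicate 2 the fitted value was 6.46, but the Mock Pdgfra+ library left had 0 counts, so it is no measured size.

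The 3 transmembrane genes were low. COL13A1, found at neuromuscular junctions and cell adhesions, fell (-1.35 ± 0.071 in Pdgfra+ and -0.59 ± 0.071 in Pdgfralow cells), at 17.7 ± 2.2 CPM in FGF8+10 Pdgfra+ and 45.3 ± 1.7 CPM in Mock Pdgfra+ cells. COL23A1 fell further (-2.30 ± 0.11 and -3.34 ± 0.11), to 2.74 ± 0.27 CPM in FGF8+10 Pdgfralow, against 27.7 ± 0.34 CPM in Mock Pdgfralow cells. COL25A1, whose shed part is known from amyloid plaques, rose in Pdgfralow cells (0.85 ± 0.1), at 15.3 ± 0.81 CPM with FGF8+10 and 8.52 ± 0.65 CPM with Mock, and did not pass in Pdgfra+ cells (-0.16 ± 0.098).

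Genes outside these classes moved in both directions. COL15A1, a multiplexin that ties basement membrane to the fibrils beneath (chromosome 9, 98943179 to 99070792), had 2.83 and 3.14 CPM in FGF8+10 Pdgfra+ cells, against 349 and 352 CPM in Mock Pdgfra+ cells, and 11.9 and 12.5 CPM in FGF8+10 Pdgfralow cells, against 562 and 561 CPM in Mock Pdgfralow cells. FGF8+10 libraries stood at 2.83 to 12.5 CPM and Mock libraries at 349 to 562 CPM. The log2 fold changes were -6.88 ± 0.044 in Pdgfra+ and -5.52 ± 0.036 in Pdgfralow cells (adjusted p = 4.56e-57 and 7.69e-57). Its relative COL18A1, the other multiplexin and the source of endostatin (chromosome 21, 45405165 to 45513720), had 1004 and 985 CPM in FGF8+10 Pdgfra+ cells, against 491 and 482 CPM in Mock Pdgfra+ cells, and 763 and 750 CPM in FGF8+10 Pdgfralow cells, against 551 and 544 CPM in Mock Pdgfralow cells. This gene rose, by 1.03 ± 0.021 in Pdgfra+ and 0.47 ± 0.021 in Pdgfralow cells. Of its exon length, 18.5% overlaps exons of SLC19A1, and reads there cannot be told apart between the genes.

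COL26A1, an EMI domain protein with short collagen stretches (chromosome 7, 101362875 to 101559024), had 126 and 126 CPM in FGF8+10 Pdgfra+ cells, against 19.9 and 16.5 CPM in Mock Pdgfra+ cells, and 167 and 171 CPM in FGF8+10 Pdgfralow cells, against 15.4 and 14.4 CPM in Mock Pdgfralow cells. The treatment groups were far apart, at 2.79 ± 0.051 in Pdgfra+ and 3.51 ± 0.051 in Pdgfralow cells (adjusted p = 8.01e-39 and 5.25e-43). COL7A1, which forms the anchoring fibrils of skin, averaged 18.3 ± 0.95 CPM in FGF8+10 Pdgfralow and 21.4 ± 0.22 CPM in Mock Pdgfralow cells. Its small fall there (-0.23 ± 0.075) was lost without FGF8+10 Pdgfralow replicate 2 (-0.18), and in Pdgfra+ cells it did not pass. COL28A1, related to type VI, rose in the fit from nearly 0 (2.06 ± 0.75 and 2.54 ± 0.9) but stayed under 1 CPM. In Pdgfra+ cells the call was lost without FGF8+10 Pdgfra+ replicate 2 (1.48) or Mock Pdgfra+ replicate 1 (1.37), and the value was 3.53 without Mock Pdgfra+ replicate 2. In Pdgfralow cells it was lost without Mock Pdgfralow replicate 2 (2.30).

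The second comparison asks how the collagen genes differed between the sorted populations. With FGF8+10, 23 were higher and 9 lower in Pdgfra+ than in Pdgfralow cells, beside 19.6% and 21.7% of all tested genes, 41.4% in all. With Mock, 24 were higher and 9 lower, beside 12.4% and 13.4% of all genes, 25.8% in all. The differences were small, with 2 members higher and 2 lower by at least 2-fold with FGF8+10, beside 3.13% and 3.26% of all genes, and 1 higher and 4 lower with Mock, beside 1.63% and 2.25%. The median was 0.35 with FGF8+10 and 0.21 with Mock, and that of all genes 0.011 and 0.016. Changes in the following are log2 fold changes, Pdgfra+ over Pdgfralow, ± standard error. Higher in Pdgfra+ cells under both treatments were 17 members. Their direction was shared by the abundant chains of types I, III and VI, by COL5A1 and by COL4A2. Of all tested genes, at most 12.4%, the share higher with Mock, can be higher in Pdgfra+ cells under both. Marker levels of other cell types differed between the gates as well. The 8 epithelial markers, most of it KRT8 and KRT18, summed to 247 CPM in both Pdgfra+ libraries, against 961 and 979 CPM in Pdgfralow libraries, with FGF8+10, and to 263 and 265 CPM in Pdgfra+, against 605 and 607 CPM in Pdgfralow libraries, with Mock. EPCAM stayed near 1 CPM or below, and GRHL2 was at or near 0. The 8 markers of mesothelium and epicardium summed to 422 and 426 CPM in Pdgfra+, against 537 and 544 CPM in Pdgfralow libraries, with FGF8+10, and to 566 and 576 CPM in Pdgfra+, against 804 and 805 CPM in Pdgfralow libraries, with Mock. The endothelial and chondrocyte sums, given above, lay closer together between the gates with Mock than with FGF8+10. The part of these cells in the population differences was not tested.

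**Figure D4:**
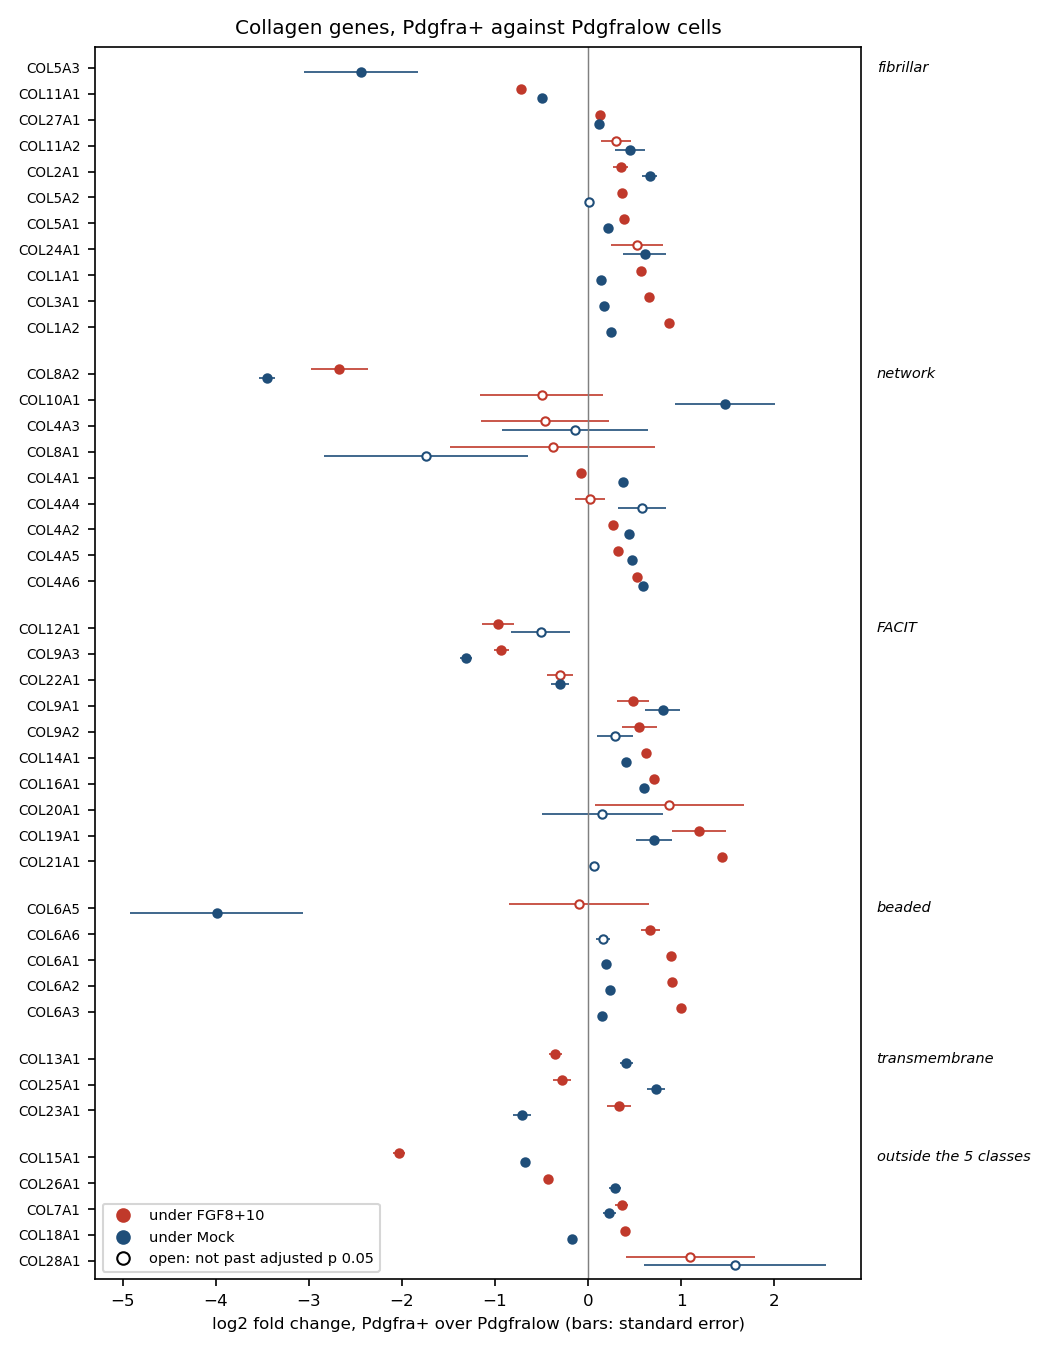
Log2 fold change of every collagen gene, Pdgfra+ over Pdgfralow, with FGF8+10 and with Mock, sorted within class by the FGF8+10 value. Bars are standard errors, filled points passed an adjusted p of 0.05, and no point is drawn for COL5A3 with FGF8+10, where Pdgfra+ cells had 0 counts. The beaded chains COL6A1, COL6A2 and COL6A3 lie between 0.89 and 1.00 with FGF8+10 and between 0.15 and 0.24 with Mock, and COL8A2 lies far left under both.

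The abundant beaded and fibrillar chains were higher in Pdgfra+ cells. With FGF8+10 the population differences were 0.89 ± 0.016 for COL6A1, 0.90 ± 0.016 for COL6A2 and 1.00 ± 0.017 for COL6A3, and with Mock 0.19 ± 0.015, 0.24 ± 0.015 and 0.15 ± 0.016. COL1A2 differed by 0.87 ± 0.015 with FGF8+10 and 0.25 ± 0.014 with Mock, COL1A1 by 0.57 ± 0.02 and 0.14 ± 0.02, and COL3A1 by 0.65 ± 0.011 and 0.17 ± 0.011. In each of these genes the Pdgfra+ libraries lay above the Pdgfralow libraries under both treatments, as the per-library values above show. The gates did not overlap, in either direction, in 67.2% of all tested genes with FGF8+10 and 58.7% with Mock. COL5A2 was higher in Pdgfra+ cells with FGF8+10 (0.36 ± 0.017), while its Mock libraries overlapped (0.01 ± 0.017).

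With FGF8+10, the FACIT genes COL21A1 and COL19A1 were the members higher by at least 2-fold. COL21A1 was higher in Pdgfra+ cells by 1.44 ± 0.037 with FGF8+10 (adjusted p = 8.31e-32) and did not pass with Mock (0.06 ± 0.031). COL16A1 was higher by 0.71 ± 0.044 and 0.60 ± 0.036, and COL14A1 by 0.62 ± 0.019 and 0.41 ± 0.019. COL19A1 was higher by 1.19 ± 0.29 with FGF8+10, a call lost without FGF8+10 Pdgfralow replicate 1 (0.77) and at 1.84 without FGF8+10 Pdgfralow replicate 2. With Mock it was higher by 0.71 ± 0.19, lost without Mock Pdgfralow replicate 2 (0.57). Type IX chains split here too, with COL9A3 lower in Pdgfra+ cells (-0.93 ± 0.08 with FGF8+10 and -1.31 ± 0.062 with Mock) and COL9A1 higher by 0.48 ± 0.17 and 0.80 ± 0.19. The COL9A1 call with FGF8+10 was lost without FGF8+10 Pdgfra+ replicate 2 (0.43) or FGF8+10 Pdgfralow replicate 1 (0.42).

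Lower in Pdgfra+ cells under both treatments were COL8A2, COL15A1, COL11A1 and COL9A3. Of all tested genes, at most 13.4%, the share lower with Mock, can be lower under both. COL8A2 stood at -2.67 ± 0.31 with FGF8+10, a value of -3.39 without FGF8+10 Pdgfra+ replicate 1, and at -3.45 ± 0.089 with Mock (adjusted p = 6.48e-10 and 4.37e-32). COL15A1 stood at -2.03 ± 0.066 and -0.68 ± 0.026 (adjusted p = 1.56e-28 and 1.99e-25), and COL11A1 at -0.72 ± 0.023 and -0.50 ± 0.024. COL12A1 was lower in Pdgfra+ cells with FGF8+10 (-0.97 ± 0.17), and its Mock libraries overlapped (-0.51 ± 0.32), with -1.28 past the test without Mock Pdgfra+ replicate 1. COL6A5 was lower with Mock, on 3 counts in Pdgfra+ and 66 in Pdgfralow cells over 2 libraries each, a level 16.8-fold higher in Pdgfralow cells (exact 95% interval 3.23 to 109). Its fitted value of -3.99 ± 0.93 was -3.09 without Mock Pdgfra+ replicate 1 and -8.01 without Mock Pdgfra+ replicate 2. The latter is no measured size, as the Mock Pdgfra+ library left had 0 counts. COL5A3 was lower with Mock as well (-2.44 ± 0.61), a call lost without Mock Pdgfralow replicate 2 (-2.28).

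Several members changed sides between treatments. COL4A1, COL13A1, COL25A1 and COL26A1 were lower in Pdgfra+ cells with FGF8+10 and higher with Mock, and COL18A1 and COL23A1 were the reverse. Of all tested genes, at most 12.4% can show the former pattern and 13.4% the reverse, the shares higher and lower with Mock. COL4A1 was at -0.08 ± 0.017 with FGF8+10 and 0.38 ± 0.017 with Mock, COL18A1 at 0.40 ± 0.021 and -0.17 ± 0.021, and COL26A1 at -0.43 ± 0.041 and 0.29 ± 0.062. The COL26A1 value with Mock was 0.15 and did not pass without Mock Pdgfra+ replicate 1. COL13A1 stood at -0.35 ± 0.074 with FGF8+10 and 0.41 ± 0.068 with Mock. COL25A1 stood at -0.28 ± 0.096 and 0.73 ± 0.1, its FGF8+10 call lost without FGF8+10 Pdgfra+ replicate 1 (-0.27), FGF8+10 Pdgfra+ replicate 2 (-0.29) or FGF8+10 Pdgfralow replicate 1 (-0.22). COL23A1 stood at 0.33 ± 0.13 and -0.71 ± 0.092, and its FGF8+10 call was lost without either FGF8+10 Pdgfra+ library, FGF8+10 Pdgfralow replicate 1 or either Mock Pdgfralow library, at 0.24 to 0.37.

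The other abundant type IV genes were higher in Pdgfra+ cells, COL4A2 by 0.27 ± 0.016 with FGF8+10 and 0.44 ± 0.016 with Mock, COL4A5 by 0.32 ± 0.02 and 0.47 ± 0.02, and COL4A6 by 0.53 ± 0.021 and 0.59 ± 0.021. COL5A1 was higher by 0.39 ± 0.016 and 0.21 ± 0.016, COL2A1 by 0.35 ± 0.082 and 0.66 ± 0.077, and COL7A1 by 0.36 ± 0.074 and 0.23 ± 0.075. The COL7A1 call with Mock was lost without any of the 4 Mock libraries, at 0.21 to 0.23. COL27A1 was higher by 0.13 ± 0.034 with FGF8+10, a call lost without FGF8+10 Pdgfra+ replicate 1 (0.10), and by 0.12 ± 0.035 with Mock, lost without Mock Pdgfra+ replicate 1 (0.07) or either Mock Pdgfralow library (0.12 and 0.12). Of the low members, COL10A1 and COL24A1 were called higher with Mock, at 1.47 ± 0.54 and 0.61 ± 0.23, calls lost without any of the 4 Mock libraries, at 1.26 to 1.68 for COL10A1 and 0.45 to 0.78 for COL24A1. The COL24A1 call was also lost without either FGF8+10 Pdgfra+ library (0.60 and 0.60). COL11A2 (0.45 ± 0.16) was called higher with Mock and lost without Mock Pdgfra+ replicate 1 (0.29) or Mock Pdgfralow replicate 2 (0.26), and COL22A1 (-0.30 ± 0.1) was called lower and lost without Mock Pdgfra+ replicate 2 (-0.17) or Mock Pdgfralow replicate 2 (-0.24). COL9A2 was higher with FGF8+10 (0.55 ± 0.19), lost without FGF8+10 Pdgfra+ replicate 2 (0.45) or FGF8+10 Pdgfralow replicate 1 (0.51), and COL6A6 was higher with FGF8+10 (0.67 ± 0.099).

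The difference between the FGF8+10 effects, Pdgfra+ minus Pdgfralow, tested whether the change from Mock differed between the sorted populations. The sort followed the treatment, so a different action of FGF8+10 and different cells in a gate cannot be told apart. The difference passed in 24 members, 15 positive and 9 negative, beside 12% and 14% of all tested genes, 26% in all. It reached 2-fold in COL6A5, COL21A1 and COL23A1 upward, beside 2.08% of all genes, and in COL15A1 and COL25A1 downward, beside 2.37%. A positive difference in a gene that fell means a smaller fall in Pdgfra+ cells. All 5 beaded genes had a positive difference, of 0.69 ± 0.022 for COL6A1, 0.67 ± 0.022 for COL6A2 and 0.85 ± 0.023 for COL6A3 among the abundant ones (adjusted p = 2.63e-28, 1.06e-27 and 1.86e-30). The COL6A5 difference was lost without Mock Pdgfra+ replicate 1 (2.99) or Mock Pdgfralow replicate 1 (3.56), and was 7.91 without Mock Pdgfra+ replicate 2. That last value is no measured size, as the Mock Pdgfra+ library left had 0 counts. Of the fibrillar genes, 5 were positive, with COL1A2 at 0.62 ± 0.02, COL3A1 at 0.48 ± 0.016 and COL1A1 at 0.43 ± 0.029, and COL2A1 and COL11A1 were negative. The COL2A1 difference (-0.31 ± 0.11) was lost without FGF8+10 Pdgfra+ replicate 2, FGF8+10 Pdgfralow replicate 2, either Mock Pdgfra+ library or Mock Pdgfralow replicate 1, at -0.31 to -0.23. Of the network genes, COL4A1, COL4A2 and COL4A5 were negative, at -0.46 ± 0.025, -0.18 ± 0.022 and -0.15 ± 0.028, so their fall was larger in Pdgfra+ cells. COL21A1 (1.37 ± 0.048) and COL15A1 (-1.36 ± 0.072) had large differences in opposite directions. COL1A1, COL1A2, COL3A1 and the abundant type VI chains thus fell less in Pdgfra+ cells, and COL4A1, COL4A2 and COL4A5 fell more. Endothelial markers had their own difference, -3.30 for PECAM1 and -3.27 for CDH5 on the log2 scale, and their part in the type IV values was not tested.

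**Figure D5:**
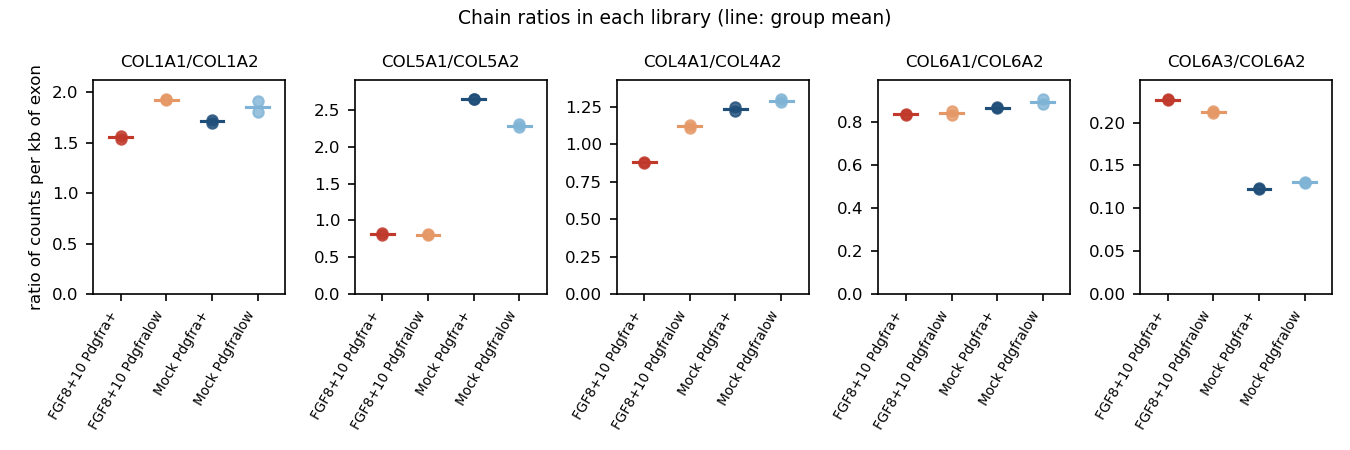
Ratio of the chains of a collagen type in each library, in counts per kb of exon. Points are libraries and lines group means, and each axis starts at 0. COL5A1/COL5A2 and COL6A3/COL6A2 separate FGF8+10 from Mock, and COL4A1/COL4A2 is lowest in FGF8+10 Pdgfra+ cells.

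The ratio of the transcripts of chains that can assemble into 1 trimer was read per kb of exon, with no test. The divisor is the whole annotated exon length of a gene, such as 21516 bases for COL6A3 and 5334 for COL6A2. The level of a ratio therefore does not give the proportion of chains, while a shift between groups does not depend on length. COL5A1 over COL5A2 was 0.82 ± 0.016 in FGF8+10 Pdgfra+ and 0.804 ± 0.0083 in FGF8+10 Pdgfralow cells, against 2.64 ± 0.0027 in Mock Pdgfra+ and 2.28 ± 0.036 in Mock Pdgfralow cells (SD, n = 2 each). This was the widest shift among the 5 abundant pairs, and the treatments do not overlap. COL6A3 over COL6A2 was 0.227 ± 8e-04 and 0.213 ± 0.0015 in FGF8+10 Pdgfra+ and Pdgfralow cells, against 0.123 ± 0.00099 and 0.131 ± 0.00062 in Mock Pdgfra+ and Pdgfralow cells. COL6A1 over COL6A2 stayed between 0.834 and 0.905 in all libraries. COL1A1 over COL1A2 was 1.56 ± 0.021 and 1.92 ± 0.013 in FGF8+10 Pdgfra+ and Pdgfralow cells, and 1.71 ± 0.021 and 1.86 ± 0.07 in Mock Pdgfra+ and Pdgfralow cells. COL4A1 over COL4A2 was 0.881 ± 0.0065 in FGF8+10 Pdgfra+ cells, below 1.12 ± 0.014 in FGF8+10 Pdgfralow, 1.23 ± 0.02 in Mock Pdgfra+ and 1.29 ± 0.015 in Mock Pdgfralow cells. COL3A1 over COL1A1, which are not in 1 trimer but share fibrils, was 7.26 ± 0.11 and 6.84 ± 0.12 in FGF8+10 Pdgfra+ and Pdgfralow cells, and 4.64 ± 0.084 and 4.53 ± 0.16 in Mock Pdgfra+ and Pdgfralow cells.

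The genes that make, export, mature, bind and break down collagen chains were read as lists in the FGF8+10 comparison. Beside the counts that follow, 25.1% of all tested genes were lower and 25.8% higher in Pdgfra+ cells, and 27.7% were lower and 27.9% higher in Pdgfralow cells, with medians of -0.011 and -0.015. The first list holds 20 genes linked to chain modification and folding in the endoplasmic reticulum, mostly enzymes and chaperones, with the ion channel TMEM38B and the transcription factor CREB3L1 among them. Of these, 14 fell and 3 rose in Pdgfra+ cells and 13 fell and 6 rose in Pdgfralow cells, with medians of -0.43 and -0.49. CREB3L1, which drives type I collagen genes, fell to 62 ± 1.5 CPM in FGF8+10 Pdgfra+ cells, against 385 ± 0.72 CPM in Mock Pdgfra+ cells (-2.63 ± 0.03), with a change of -2.68 ± 0.031 in Pdgfralow cells. FKBP10, a prolyl isomerase for collagen, was at 751 ± 0.26 CPM in FGF8+10 Pdgfra+ and 1369 ± 4.7 CPM in Mock Pdgfra+ cells (-0.86 ± 0.019 in Pdgfra+ and -1.06 ± 0.019 in Pdgfralow cells). P4HA2, a prolyl hydroxylase subunit, fell in both populations (-0.64 ± 0.034 in Pdgfra+ and -1.03 ± 0.035 in Pdgfralow cells). COLGALT2, a collagen galactosyltransferase, rose in both from a low level (1.18 ± 0.23 in Pdgfra+ and 0.98 ± 0.22 in Pdgfralow cells).

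Of 9 genes of secretory export, 5 fell and 1 rose in Pdgfra+ cells and 5 fell and 3 rose in Pdgfralow cells, with medians of -0.16 and -0.12. SEC24D, the coat protein that loads procollagen, was at 158 ± 5.3 CPM in FGF8+10 Pdgfra+ and 354 ± 0.15 CPM in Mock Pdgfra+ cells (-1.16 ± 0.027 in Pdgfra+ and -1.06 ± 0.027 in Pdgfralow cells). MIA2 fell (-0.51 ± 0.071 and -0.64 ± 0.07), as did SEC13 in Pdgfra+ cells (-0.41 ± 0.03) and SEC31A in Pdgfralow cells (-0.36 ± 0.024). Their means were lower in the other population too. SEC13 averaged 141 ± 2.2 CPM in FGF8+10 Pdgfralow and 178 ± 2.6 CPM in Mock Pdgfralow cells. SEC31A averaged 362 ± 4.2 CPM in FGF8+10 Pdgfra+ and 441 ± 2.1 CPM in Mock Pdgfra+ cells. Of 13 genes for propeptide cleavage and crosslinking, 6 fell and 4 rose in Pdgfra+ cells and 7 fell and 5 rose in Pdgfralow cells, with medians of -0.07 and -0.47. LOX, the crosslinking oxidase, stood at 258 ± 7.4 CPM in FGF8+10 Pdgfra+ and 39 ± 0.19 CPM in Mock Pdgfra+ cells (2.73 ± 0.034 in Pdgfra+ and 2.87 ± 0.033 in Pdgfralow cells). ADAMTS2, which removes the amino-terminal propeptide, rose by 2.74 ± 0.043 and 2.43 ± 0.045, and TLL1, which removes the carboxy-terminal one, fell (-4.93 ± 0.22 and -5.28 ± 0.19) to under 1 CPM.

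Of 7 collagen receptors, 3 rose and 3 fell in each population, beside 50.9% of all genes called in either direction in Pdgfra+ and 55.7% in Pdgfralow cells, with medians of 0.01 and -0.21. DDR2, a fibrillar collagen receptor, fell (-1.24 ± 0.024 in Pdgfra+ and -1.75 ± 0.025 in Pdgfralow cells), to 256 ± 4.3 CPM in FGF8+10 Pdgfra+, against 604 ± 5.5 CPM in Mock Pdgfra+ cells. The integrin chain ITGA2 rose by 3.05 ± 0.26 and 4.06 ± 0.22, ITGA11 rose by 1.98 ± 0.11 in Pdgfra+ cells and ITGA10 rose by 1.5 ± 0.25 in Pdgfralow cells. Neither ITGA11 nor ITGA10 rose in the other population. ITGA11 averaged 15.1 ± 0.0017 CPM in FGF8+10 Pdgfralow and 17.6 ± 1 CPM in Mock Pdgfralow cells. ITGA10 averaged 1.58 ± 0.16 CPM in FGF8+10 Pdgfra+ and 1.57 ± 0.44 CPM in Mock Pdgfra+ cells. Of 8 listed collagenases and breakdown genes, 6 had enough counts to be tested, and 4 rose and 1 fell in each population, beside the same shares of all genes, with medians of 0.54 and 0.66. MMP2 (gelatinase A) was at 1157 ± 5.5 CPM in FGF8+10 Pdgfra+ and 761 ± 5.5 CPM in Mock Pdgfra+ cells (0.60 ± 0.019). In Pdgfralow cells MMP2 averaged 1037 ± 3 CPM with FGF8+10 and 656 ± 4.8 CPM with Mock. MMP1, the interstitial collagenase, rose by 2.07 ± 0.34 and 3.30 ± 0.24 and MMP9 by 3.10 ± 0.62 in Pdgfralow cells, MMP9 staying under 1 CPM. In Pdgfra+ cells MMP9 averaged 0.465 ± 0.092 CPM with FGF8+10 and 0.285 ± 0.2 CPM with Mock. FAP, called lower in both populations, stayed under 1 CPM and was at 0 in both FGF8+10 Pdgfra+ libraries.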

How the data were processed

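RNA was measured in 8 libraries, 2 in each of 4 groups given by the sample titles. The authors deposited raw counts per gene name, with each gene's exon length and coordinates. The tools named in the submitters' processing notes are HISAT2 2.1.0, an aligner, and FastQC 0.11.8, a read quality check, with GRCh38 as the build. Per the file headers, featureCounts 2.0.3 counted reads by gene name on GENCODE release 42, with a command that sets no strand and does not ask for pairs to be counted as 1, so each mate was taken as a count here. Counts then overstate independent fragments, and overlapping genes on opposite strands cannot be told apart. How reads were trimmed is not given in the sources used here. No sample column was left unused (0).

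The counts were scaled by TMM and tested with edgeR 4.0.16 (limma 3.58.1, R 4.3.3; filterByExpr, 22554 genes; robust quasi-likelihood fit over all 8 libraries with 4 residual degrees of freedom; 5 two-sided contrasts, each with Benjamini-Hochberg adjustment over all genes tested at 0.05). The fit shares its estimate of the spread across genes, and the common coefficient of variation between libraries of a group was 4.06%. Very small p-values rest on that shared spread and not on the 4 residual degrees of freedom of a gene alone. The standard error was the absolute log2 fold change divided by the square root of F. CPM use TMM-adjusted totals, and CPM per kb divide by the deposited exon length. DESeq2 1.42.0 was an alternative, as were other scalings, other filters, counts divided by 2, a replicate block, single contrasts and left-out libraries. The fit was tested on simulated data. Promoter windows were matched by symbol in RefSeq. Intervals for few reads and floors (6 counts, or 3 pairs, over a group) cover counting error only. Per-library values were given for members that average 50 CPM in a group or are among the 5 largest called changes of the first 4 contrasts, 27 in all. Genes of the pathway lists are named where they are among the 3 called genes with the largest change in an FGF8+10 comparison. Members and lists were chosen with earlier results of these data known.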

Additional observations from a re-analysis of the deposited data

Results flagged for a closer look

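The effect of FGF8+10 differed between Pdgfra+ and Pdgfralow cells in 24 collagen genes by the test of the difference itself (edgeR quasi-likelihood test, adjusted p from 1.86e-30 to 0.0367), beside 26% of all tested genes. The sort followed the treatment, so the test cannot tell a different action of FGF8+10 from different cells in a gate. Differences are log2 fold changes in Pdgfra+ minus those in Pdgfralow cells, with standard errors. Among fibrillar genes they were 0.18 ± 0.022 for COL5A1, 0.36 ± 0.024 for COL5A2, 0.43 ± 0.029 for COL1A1, 0.48 ± 0.016 for COL3A1, 0.62 ± 0.02 for COL1A2, -0.31 ± 0.11 for COL2A1 and -0.22 ± 0.033 for COL11A1. Among network genes they were -0.46 ± 0.025 for COL4A1, -0.18 ± 0.022 for COL4A2 and -0.15 ± 0.028 for COL4A5. FACIT genes gave 0.21 ± 0.026 for COL14A1, 0.38 ± 0.1 for COL9A3 and 1.37 ± 0.048 for COL21A1. Beaded genes gave 0.51 ± 0.12 for COL6A6, 0.67 ± 0.022 for COL6A2, 0.69 ± 0.022 for COL6A1, 0.85 ± 0.023 for COL6A3 and 3.89 ± 1.2 for COL6A5. Transmembrane genes gave -0.76 ± 0.1 for COL13A1, -1.01 ± 0.14 for COL25A1 and 1.04 ± 0.16 for COL23A1. Outside the classes they were -1.36 ± 0.072 for COL15A1, -0.71 ± 0.075 for COL26A1 and 0.57 ± 0.029 for COL18A1. The COL25A1 effect was -0.16 in Pdgfra+ cells, which did not pass, and 0.85 in Pdgfralow cells, which did. The COL14A1 effect was 0.14 in Pdgfra+ and -0.07 in Pdgfralow cells, both past the test, and the Pdgfralow value was 0.09 with libraries scaled by their totals alone. The COL2A1 difference was lost in 5 of the 8 fits that left out 1 library, without FGF8+10 Pdgfra+ replicate 2, FGF8+10 Pdgfralow replicate 2, either Mock Pdgfra+ library or Mock Pdgfralow replicate 1 (-0.31 to -0.23). The COL6A5 difference was lost without Mock Pdgfra+ replicate 1 (2.99) or Mock Pdgfralow replicate 1 (3.56). COL6A5 rests on 3 counts in the Mock Pdgfra+ libraries. Groups of 2 libraries allow no check for a library far from the others.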

How the results depend on the processing

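No count of collagen genes called moved by over 1.5 times under any alternative. Leaving out each library in turn gave 8 to 11 higher and 26 to 27 lower for FGF8+10 against Mock in Pdgfra+ cells, 8 to 9 and 25 to 27 in Pdgfralow cells, 20 to 23 and 8 to 10 for Pdgfra+ against Pdgfralow cells with FGF8+10, 19 to 24 and 7 to 10 with Mock, and 14 to 17 and 8 to 9 for the difference. A left-out library leaves a group with 1 library, which is assumed to vary like the others. Library totals alone turned 4 member values, COL4A6 to 0.07 and COL5A2 to 0.04 in Pdgfra+ cells, and COL14A1 to 0.09 and COL4A6 to 0.12 in Pdgfralow cells, where the median of all genes also shifted, to 0.161 and 0.146. No other alternative turned a called value. With the replicate block the counts were 10 and 26, 9 and 27, 23 and 9, and 23 and 9, and COL24A1 with Mock lost its call (adjusted p = 0.0512). Same-numbered libraries of different groups deviated together at correlations of -0.01 to 0.03. These values cannot show whether same-numbered libraries came from 1 differentiation, which the labels do not say. Without division by exon length the chain ratios in FGF8+10 Pdgfra+, FGF8+10 Pdgfralow, Mock Pdgfra+ and Mock Pdgfralow cells were 1.30, 1.60, 1.43 and 1.55 for COL1A1/COL1A2, 0.670, 0.855, 0.939 and 0.983 for COL4A1/COL4A2, 1.25, 1.23, 4.03 and 3.48 for COL5A1/COL5A2, 0.867, 0.875, 0.900 and 0.927 for COL6A1/COL6A2, and 0.915, 0.857, 0.496 and 0.527 for COL6A3/COL6A2. Further values that passed only without 1 library were COL22A1 (-0.44 and -0.43), COL20A1 (3.28) and COL5A3 (-4.76, with 0 counts in FGF8+10 Pdgfra+ cells and so no measured size) with FGF8+10 and COL9A2 (0.61) and COL4A4 (0.93) with Mock in the population comparison, and COL16A1 (0.18 and 0.17) and COL8A2 (1.29) in the difference. Outside left-out libraries, calls were lost for COL6A5 with counts divided by 2 in Pdgfra+ cells (1.93), COL7A1 with library totals alone in Pdgfralow cells (-0.07), COL23A1 with FGF8+10 under 3 settings (0.33), COL10A1 (1.45), COL11A2 (0.44) and COL24A1 (0.59 to 0.61) with Mock, and COL2A1 in the difference with no low count filter (-0.28). Calls were gained for COL20A1 in Pdgfra+ cells (-1.53 and -1.49), COL4A6 (-0.06) and COL6A5 (-1.45) in Pdgfralow cells, and COL21A1 (0.07) and COL6A6 (0.16) in the population comparison with Mock. The cause was not tested. The 5 members that stayed under 1 CPM in every library rest on few reads, and each group has 2 libraries.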
